A study of Homo sapiens with 6 samples.

Results

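NRF2 pathway genes were examined by RNA-seq in PC9 cells and in the drug-tolerant persister (PS) cells derived from them. The set held 31 genes of the 36459 in the gene table, taken by symbol from a list of NRF2 regulators and target genes of thioredoxin, NADPH supply, detoxification and export. PC9 is an established line of human non-small cell lung cancer driven by mutant EGFR, and erlotinib inhibits the EGFR kinase. The 3 parental libraries came from separate cultures of untreated PC9 cells, and the 3 PS libraries came from cells left after 6 days in 15 µM erlotinib, each library a pool of several cultures. The PS cells still had erlotinib in the medium when collected, so the presence of the drug and the persister state cannot be told apart. RNA was taken from whole cultures, in which fewer cells of a type and less RNA per cell cannot be told apart either.

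NRF2, encoded by NFE2L2, is the transcription factor that sets the basal and induced level of many antioxidant and detoxification enzymes. KEAP1 holds NRF2 in the cytosol and directs it to degradation by a cullin ubiquitin ligase, and oxidants or electrophiles that modify KEAP1 let NRF2 accumulate. In the nucleus NRF2 pairs with a small MAF protein such as MAFG and binds the antioxidant response element (ARE). Much of this control acts on the protein and is not seen in the NFE2L2 transcript. The target enzymes draw on NADPH to reduce thioredoxin, glutathione, quinones and carbonyls, and lung tumours often have the pathway in an active state.

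Each library held 29476725 to 34893782 gene counts, and all 31 genes passed the filter on low counts. The epithelial markers of the labelled line were abundant in both conditions, with summed levels of 7523 to 8055 CPM (counts scaled to library size with TMM factors) in parental and 5938 to 6300 CPM in PS libraries over 10 markers, while of the lung genes among them SFTPC and NKX2-1 stood at 0 to 1 counts, NAPSA at 5 to 11 counts and SFTPB at 4.18 ± 0.380 CPM in parental and 1.23 ± 0.0785 CPM in PS cells (log2 fold change −1.76). Markers of other cell types were low. The summed levels in parental and PS libraries were 10.2 to 10.7 and 26.5 to 30.1 CPM for fibroblast markers, 75.1 to 76.8 and 19.7 to 22.8 CPM for immune markers, and 8.19 to 8.88 and 3.60 to 4.03 CPM for endothelial markers, with COL3A1 and CD3E at 0 in all libraries. Nearly all of the immune sum was CD68, with means of 74.8 and 21.1 CPM. PTPRC (0.333 and 0.151 CPM) and CD14 (0.538 and 0.239 CPM) were far lower. Nearly all of the fibroblast sum was COL1A1, at 10.2 and 28.3 CPM. The sums therefore do not show a number of such cells, and the part of other cell types in the results was not tested.

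The core of the ARE, TGACNNNGC, was searched on both strands of the promoters in RefSeq (GRCh38.p14), since it is the sequence that NRF2 is known to bind. Promoter windows of 250 bases before to 50 bases after a start were given for 26 of the 31 genes, and none for PRDX1, ABCC1, ABCC3, CBR3 and TRIM16L. The core was in 12 of 33 windows of these genes (36.4%) and in 13.3% of 35116 windows of all genes. In the 1000 bases before each start, a window added after the first listing was seen, it was in 23 of 33 (69.7%) and in 31.9% of all. These windows belonged to 19 genes. Windows of the same gene can overlap, and the site of IDH1 was counted in both windows of that gene. The genes were taken from a list of NRF2 regulators and targets, so a share above that of all promoters was to be expected in advance. A match is a description of letters and not a shown binding site.

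Matched sites of 8 genes are shown, each on the strand that reads TGAC, with the 9-letter core in capitals and 10 bases of flank on either side. They were chosen from genes that rose, that fell and, with ME1, that did not pass the test, and the first 3 also hold the AP-1 site TGANTCA within the core.
NQO1: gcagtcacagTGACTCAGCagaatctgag
ME1: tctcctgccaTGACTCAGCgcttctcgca
TALDO1: acccagggacTGACTCAGCataagcggac
TXNRD1: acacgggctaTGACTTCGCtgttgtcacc
ABCC4: gaccgacgggTGACGCGGCgggaggagac
GPX2: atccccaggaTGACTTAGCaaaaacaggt
PGD: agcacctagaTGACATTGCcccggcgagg
IDH1: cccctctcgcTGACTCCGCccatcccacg

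The NQO1 site is at chr16:69726997-69727025 on the minus strand, inside an exon of the divergent transcript NQO1-DT, with its core at −455 to −447 from the NQO1 start. The ME1 site (chr6:83431170-83431198, minus strand, core at −137 to −129), the TALDO1 site (chr11:746501-746529, plus strand, −953 to −945) and the TXNRD1 site (chr12:104215670-104215698, plus strand, −99 to −91) lie outside any annotated gene. So does the ABCC4 site (chr13:95301582-95301610, plus strand, −149 to −141). The GPX2 site (chr14:64942849-64942877, plus strand, −122 to −114) lies in an intron of the neighbouring gene CHURC1, and those of PGD (chr1:10398853-10398881, minus strand, −201 to −193) and IDH1 (chr2:208255196-208255224, minus strand, −143 to −135) in introns of alternative transcripts of the genes themselves.

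Genes with the core were found in all 3 outcomes of the test described below. In the 1000-base window the core was found in 3 of 5 genes that rose, in 13 of 17 that fell and in 3 of 4 that did not pass the test, counting genes with a window. The longer form TGACTCAGC, which was chosen after the matches were seen, was in 3 of 33 windows (9.09%) and in 1.42% of all. Its 3 genes were NQO1, TALDO1 and ME1, and PIR held it just after its start, in an exon. An AP-1 site, inside an ARE core or apart from one, was in 30.3% of these windows against 22.6% of all, and the CRE, TGACGTCA, was in 0 of 33 against 2.37% of all.

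Of the 31 genes, 21 were lower in PS cells, 5 were higher and 5 did not pass the test, which was edgeR's quasi-likelihood test at a Benjamini-Hochberg adjusted p under 0.01 over all genes. These 26 genes are 83.9% of the set, read against 56.8% of the 14626 genes tested. The lower genes made up 67.7% of the set against 28.1% of all genes, and the higher genes 16.1% against 28.7%. A fall of at least 1 on the log2 scale was seen in 7 genes (5.91% of all genes fell as far) and a rise of that size in 0 (5.65% of all). The 3 PS libraries lay entirely above or below the 3 parental libraries for the same 26 genes, as they did for 71.3% of all genes. The median log2 fold change was −0.33 over the 31 genes and −0.01 over all genes tested.

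**Figure D1:**
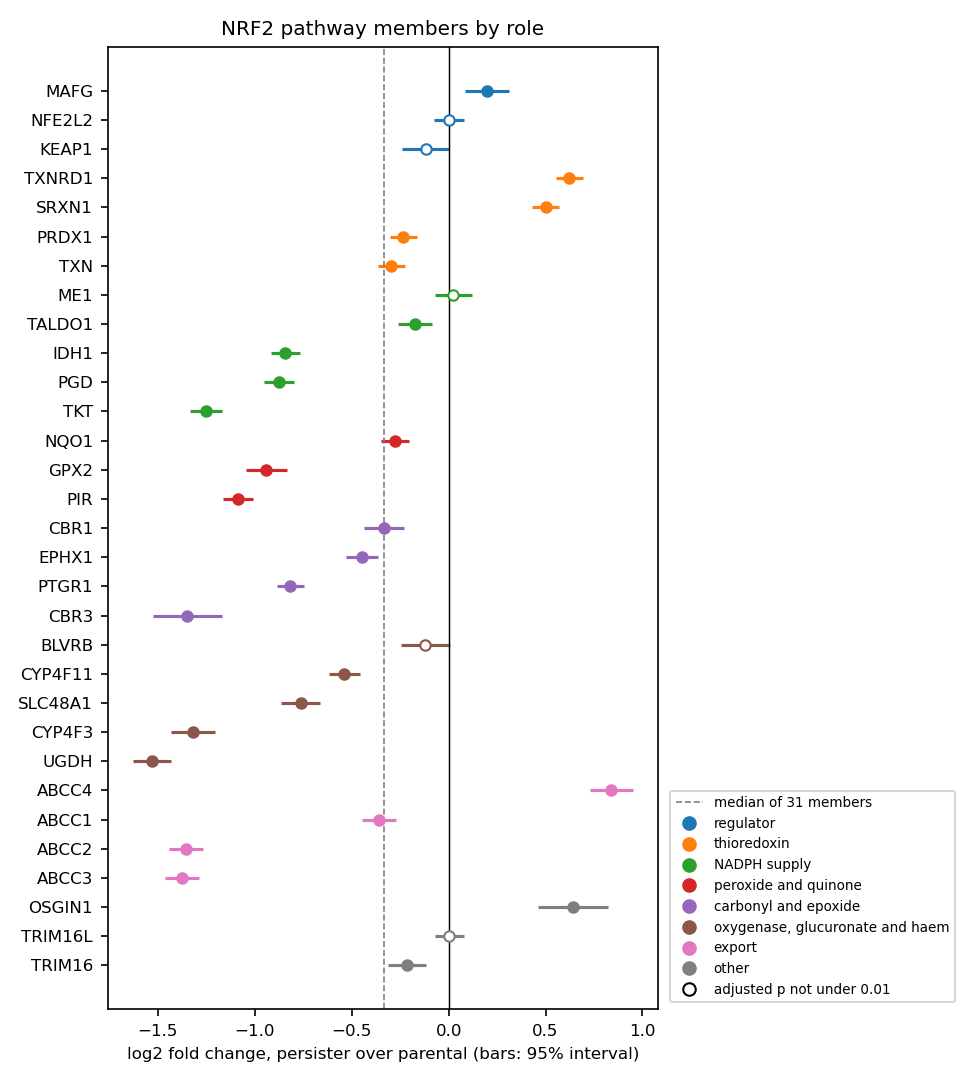
Log2 fold change of each of the 31 genes in PS over parental PC9 cells (x axis), with 95% intervals as bars, grouped and coloured by role. Filled points passed the test at an adjusted p under 0.01 and open points did not, and the dashed line marks the median of −0.33. Points lie from −1.53 for UGDH to 0.84 for ABCC4, and all 4 carbonyl and epoxide enzymes lie to the left of 0.

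Of the 3 regulators in the set, NFE2L2 and KEAP1 did not pass the test and MAFG was higher. NFE2L2 stood at 230.2 ± 5.77 CPM in parental cells and 230.5 ± 3.11 CPM in PS cells (SD, n = 3 each), and its libraries overlapped. Its log2 fold change was 0.00, with a 95% interval from −0.08 to 0.08. KEAP1, the NRF2 inhibitor, ranged from 118 to 134 CPM in parental and from 112 to 123 CPM in PS libraries, and its difference of −0.12 on the log2 scale (edgeR adjusted p = 0.0779) passed the limit only when parental replicate 1 was left out (−0.17, adjusted p = 0.00477). MAFG, a small MAF partner of NRF2, measured 94.7, 109 and 105 CPM in parental and 118, 116 and 120.2 CPM in PS libraries (log2 fold change 0.20, edgeR adjusted p = 5.37e-03). That call was lost without parental replicate 3 (adjusted p = 0.0139) and without PS replicates 1, 2 or 3 (adjusted p = 0.0155, 0.0138 and 0.0279), as it was under library size scaling (0.0346) and upper-quartile scaling (0.0170).

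The thioredoxin system divided. TXNRD1, the NADPH-dependent reductase that recycles thioredoxin, measured 1984, 1923 and 1955 CPM in the parental libraries and 3022, 3027 and 2978 CPM in the PS libraries. The groups did not overlap, and TXNRD1 was 1.54-fold higher in PS cells (log2 fold change 0.62 ± 0.03 SE, edgeR adjusted p = 2.50e-08). SRXN1, sulfiredoxin, which repairs overoxidised peroxiredoxins, measured 354, 363 and 363 CPM in parental and 510.2, 505 and 514 CPM in PS libraries. It was 1.41-fold higher (log2 fold change 0.50, edgeR adjusted p = 1.64e-07). Of its 31-letter words 90.6% also occur in the gene ENSG00000270299, which held 11 counts over the 6 libraries against 85139 for SRXN1. How reads were divided between the 2 genes is uncertain, and this was not tested.

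The substrates of these enzymes among the 31 genes, TXN and PRDX1, went the other way. TXN, thioredoxin itself, ranged from 630.4 to 646 CPM in parental and from 514 to 520.4 CPM in PS libraries, and fell by 0.30 on the log2 scale (edgeR adjusted p = 9.50e-06). PRDX1, the peroxiredoxin that passes electrons from thioredoxin to hydrogen peroxide, ranged from 1179 to 1208 CPM and from 1006 to 1033 CPM, and fell by 0.23 (edgeR adjusted p = 6.53e-05). PRDX1 shares 28.2% of its 31-letter words with its neighbour MMACHC, which had 1737 counts against 218617. Peroxiredoxins outside the set did not move together. PRDX4 (log2 fold change 0.23) and PRDX6 (0.13) rose, and PRDX2 (−0.44), PRDX3 (−0.16) and PRDX5 (−0.95) fell.

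Of the 5 genes grouped under NADPH supply, 4 were lower and ME1 did not pass the test. TKT and TALDO1 are in this group but do not make NADPH themselves. TKT, transketolase of the non-oxidative pentose phosphate pathway, measured 1974, 2095 and 1999 CPM in the parental libraries and 822, 860.2 and 862 CPM in the PS libraries. No library of either group came near the other group. TKT (chr3:53224712-53256052, ENSG00000163931) was 2.39-fold lower in PS cells (log2 fold change −1.25 ± 0.04 SE, edgeR adjusted p = 4.89e-10). PGD, the dehydrogenase that makes NADPH from 6-phosphogluconate, went from 733 ± 13.8 to 399 ± 9.38 CPM (log2 fold change −0.88). IDH1, the cytosolic NADP-dependent isocitrate dehydrogenase, went from 268 ± 2.38 to 149 ± 2.95 CPM (−0.84).

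TALDO1, transaldolase, fell less, from 317 ± 10.0 to 282 ± 10.0 CPM (log2 fold change −0.17, edgeR adjusted p = 2.74e-03), and its call was lost without parental replicate 3 (adjusted p = 0.0136) or PS replicate 1 (adjusted p = 0.0144). ME1, the cytosolic malic enzyme, stood at 232 ± 10.8 CPM in parental and 236 ± 7.36 CPM in PS cells. Its libraries overlapped, and the 95% interval of its log2 fold change ran from −0.07 to 0.12. Both ME1 and TALDO1 carry the TGACTCAGC site printed above, and so does NQO1, which fell by 0.28.

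All 3 genes grouped under quinones and peroxides fell, although the activity of PIR named here is on neither. PIR, pirin, an iron-binding nuclear protein with quercetin dioxygenase activity, measured 181, 179 and 185 CPM in parental and 86.0, 84.7 and 85.9 CPM in PS libraries. It was 2.12-fold lower (chrX:15384799-15493564, ENSG00000087842, log2 fold change −1.09 ± 0.04 SE, edgeR adjusted p = 9.75e-10). GPX2, a glutathione peroxidase of epithelia, went from 179 ± 5.59 to 93.4 ± 5.57 CPM (log2 fold change −0.94). NQO1, the quinone reductase most often used as a readout of NRF2, fell less, from 768 ± 12.9 to 633 ± 8.68 CPM (log2 fold change −0.28, edgeR adjusted p = 1.97e-05).

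All 4 enzymes that act on carbonyls, enones and epoxides fell too. CBR3, a carbonyl reductase, measured 14.8, 15.4 and 15.2 CPM in parental and 5.28, 6.16 and 6.32 CPM in PS libraries. It was 2.55-fold lower (chr21:36135079-36146562, ENSG00000159231, log2 fold change −1.35 ± 0.08 SE, edgeR adjusted p = 1.06e-07). Its paralog CBR1 lies on the same chromosome and shares 1.20% of its 31-letter words with CBR3. CBR1 fell by 0.33, from 86.4 ± 0.955 to 68.5 ± 3.78 CPM. PTGR1, which reduces enones and oxidised eicosanoids, went from 599 ± 6.84 to 340 ± 3.76 CPM (log2 fold change −0.82), and EPHX1, microsomal epoxide hydrolase, from 316 ± 7.97 to 232 ± 7.58 CPM (−0.45).

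UGDH had the largest fall among the 31 genes. It makes UDP-glucuronate, the donor for glucuronidation and a precursor of matrix polysaccharides. UGDH measured 129.5, 125 and 125 CPM in the parental libraries and 44.7, 45.1 and 41.3 CPM in the PS libraries. The groups did not approach each other, and UGDH (chr4:39498755-39528311, ENSG00000109814) was 2.89-fold lower (log2 fold change −1.53 ± 0.05 SE, edgeR adjusted p = 4.74e-10).

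The cytochrome P450 enzymes CYP4F3 and CYP4F11, which hydroxylate fatty acids, leukotrienes and vitamin K, both fell. CYP4F3 measured 50.3, 47.6 and 46.4 CPM in parental and 19.8, 18.8 and 19.3 CPM in PS libraries, a 2.49-fold lower level (chr19:15640897-15662825, ENSG00000186529, log2 fold change −1.32 ± 0.05 SE, edgeR adjusted p = 3.63e-09). CYP4F11 went from 171 ± 0.624 to 117 ± 2.92 CPM (−0.54). CYP4F3 shares 13.6% of its 31-letter words with CYP4F2, which had 37 counts in all libraries. Among the haem genes, SLC48A1, a haem transporter, went from 94.8 ± 4.24 to 55.8 ± 1.73 CPM (log2 fold change −0.76). BLVRB, biliverdin reductase B, had overlapping libraries of 85.3 to 98.0 CPM and 83.3 to 89.9 CPM (log2 fold change −0.12, edgeR adjusted p = 0.0841) and passed the limit only without parental replicate 1 (−0.18, adjusted p = 0.00271).

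The 4 ABCC transporters, which export glutathione, glucuronide and sulfate conjugates and other organic anions, did not move together. ABCC3 measured 181, 189 and 183 CPM in parental and 72.5, 71.7 and 68.7 CPM in PS libraries, and was 2.60-fold lower (chr17:50634777-50692253, ENSG00000108846, log2 fold change −1.38 ± 0.04 SE, edgeR adjusted p = 3.72e-10). In both conditions 68.4% of ABCC3 transcript counts were assigned to ENST00000505699, annotated for nonsense-mediated decay and not as protein coding. The coding transcript ENST00000285238 held 21.2% in parental and 18.8% in PS cells. That transcript was lower too (log2 fold change −1.57, edgeR adjusted p = 3.06e-03). ABCC2 measured 167, 162 and 164 CPM in parental and 66.8, 63.2 and 62.5 CPM in PS libraries. It was 2.56-fold lower (chr10:99782640-99852594, ENSG00000023839, log2 fold change −1.35 ± 0.04 SE, edgeR adjusted p = 4.54e-10). ABCC1 fell by 0.36, from 278 ± 11.4 to 217 ± 4.99 CPM.

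ABCC4, which also exports cyclic nucleotides and prostanoids, was the transporter that rose. It measured 28.7, 26.6 and 26.9 CPM in parental and 50.9, 48.7 and 47.6 CPM in PS libraries. Every PS library was above every parental library, and ABCC4 was 1.79-fold higher (chr13:95019835-95301475, ENSG00000125257, log2 fold change 0.84, edgeR adjusted p = 1.03e-07). The rise rests on the gene table. Only 61.3% of its counts were on transcripts matched to the annotation, and counts summed from those transcripts gave a smaller difference, 0.12 on the log2 scale (edgeR adjusted p = 0.646).

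Of the remaining genes, OSGIN1, an oxidative stress-induced growth inhibitor, measured 21.2, 27.5 and 23.7 CPM in parental and 35.9, 38.5 and 38.6 CPM in PS libraries. It was 1.56-fold higher, with the widest relative spread in parental cells among the genes that rose (log2 fold change 0.64, edgeR adjusted p = 3.86e-05). TRIM16, an E3 ligase that binds NRF2 and KEAP1, fell by 0.22, with libraries from 234 to 258 CPM in parental and from 206 to 218 CPM in PS cells. Its paralog TRIM16L stood at 409 ± 8.08 and 409.8 ± 9.13 CPM, with a 95% interval of its log2 fold change from −0.07 to 0.08. TRIM16 and TRIM16L share 38.9% and 52.4% of their 31-letter words with each other, so the division of counts between them is uncertain. Only 23.4% of the TRIM16L counts were on transcripts matched to the annotation, and the words were counted on matched transcripts alone.

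**Figure D2:**
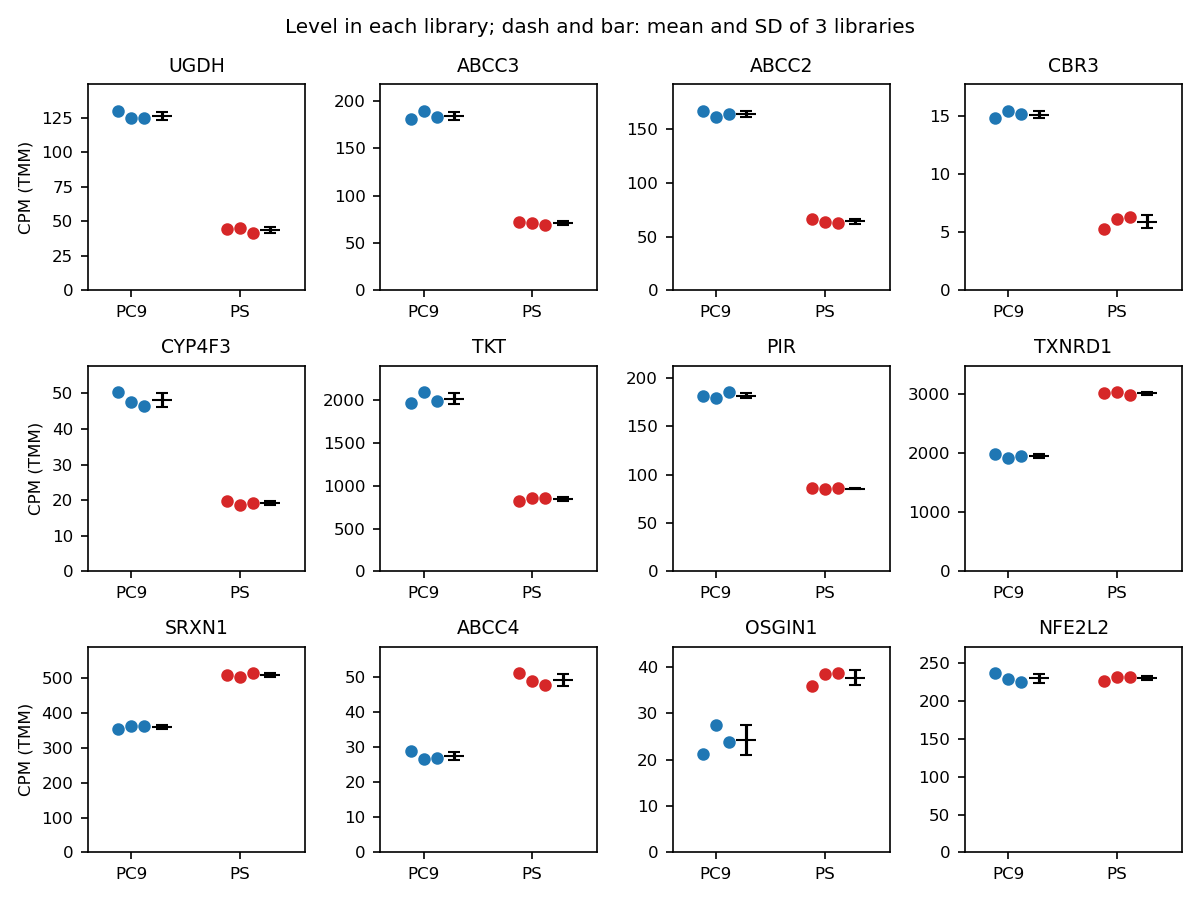
TMM-normalised level in CPM (y axis, from 0) of 12 of the 31 genes in each parental (PC9, blue) and persister (PS, red) library, with a dash and bar for the mean and SD of 3 libraries. UGDH, ABCC3, ABCC2, CBR3, CYP4F3, TKT and PIR are lower in all PS libraries, TXNRD1, SRXN1, ABCC4 and OSGIN1 are higher in all, and the NFE2L2 libraries overlap.

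Summed over the 31 genes, the level was 12099, 12288 and 12179 CPM in the parental libraries and 10190, 10311 and 10320 CPM in the PS libraries. Levels per transcript length were set beside each other as TPM, counts divided by transcript length and scaled to the same total in each library, for the 26 genes with at least 95% of their counts on matched transcripts. In parental cells PRDX1 was highest at 2329 ± 70.0 TPM, followed by TKT at 1976 ± 114 TPM, TXN at 1643 ± 40.9 TPM and TXNRD1 at 1209 ± 18.2 TPM. In PS cells PRDX1 was again highest at 2042 ± 48.1 TPM, followed by TXNRD1 at 1894 ± 49.0 TPM, TXN at 1387 ± 29.1 TPM, NQO1 at 892 ± 14.5 TPM and TKT at 865 ± 19.5 TPM. By this measure TXNRD1 was below its substrate TXN in every parental library and above it in every PS library. The lengths were full annotated lengths, with no correction for fragment length. The order of genes with a short transcript, such as TXN (737 bases), and genes with longer ones is therefore uncertain. The PS libraries of TKT and NQO1 overlapped in TPM, while those of PRDX1 and TXNRD1 did not. At the low end, OSGIN1, CYP4F3 and CBR3 were the lowest in parental cells, at 26.7 ± 3.42, 27.8 ± 1.25 and 28.9 ± 1.11 TPM, within their spread of each other. In PS cells CYP4F3, at 11.4 to 12.7 TPM, and CBR3, at 11.7 ± 0.856 TPM, were lowest.

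**Figure D3:**
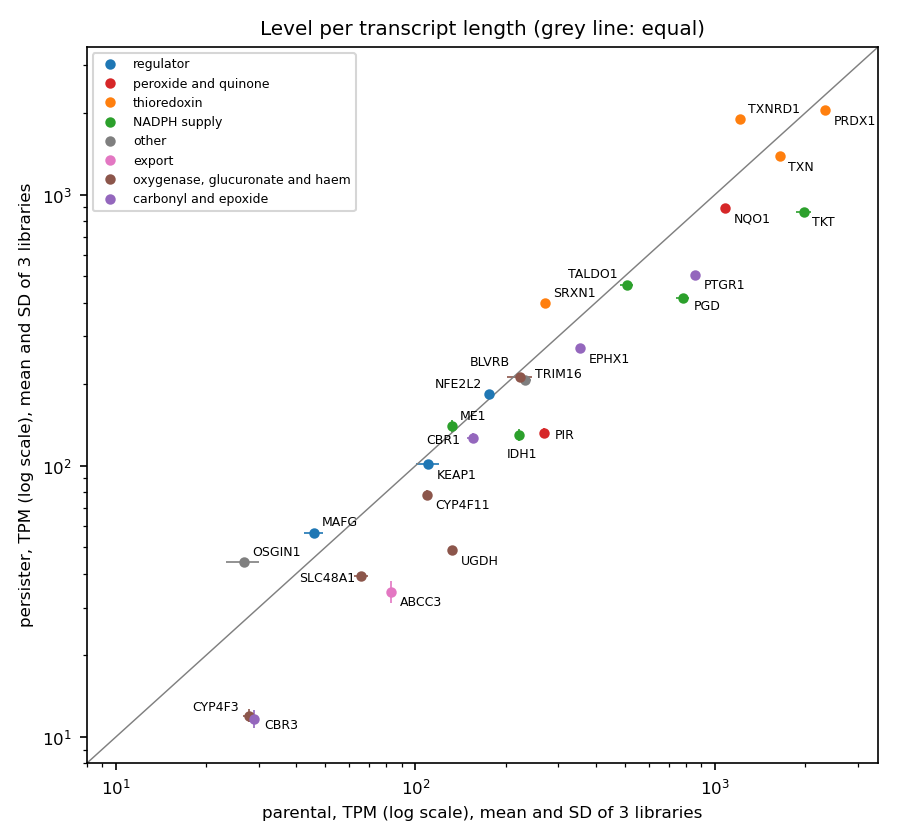
Level per transcript length (TPM, log scales) of the 26 genes with nearly complete transcript counts, in parental (x axis) and PS cells (y axis), as means with SD of 3 libraries and coloured by role. Genes below the grey line of equal level are lower in PS cells, such as TKT at 1976 and 865 TPM, and TXNRD1 lies above it at 1209 and 1894 TPM.

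Transcripts were tested for the same contrast, to see whether the gene-level differences were carried by the main transcript of each gene. Of 161 transcripts of these genes that were tested, 38 (23.6%) passed the limit, 33 lower and 5 higher, against 7.8% of 54499 transcripts in all. Without parental replicate 3 the count was 21, without PS replicate 2 it was 25, and without PS replicate 3 it was 24. Among genes called at the gene level, the matched transcript with the largest share missed the limit for MAFG, OSGIN1, ABCC4, NQO1, TALDO1 and TRIM16. Its edgeR adjusted p was 0.288, 0.0297, 0.844, 0.0190, 0.0780 and 0.0270, in that order. In ABCC4 this transcript had a log2 fold change of −0.14, against the direction of the gene, and in the others the direction was the same. The division of a gene's counts among its transcripts (transcript usage, diffSpliceDGE in edgeR) passed the limit in 0 of 28 genes, against 1.86% of 10545 genes, with 4 at an unadjusted p under 0.05. These were UGDH (adjusted p = 0.0144), TXNRD1 (0.0311), TKT (0.153) and TRIM16 (0.528). Without PS replicate 2, usage passed the limit in 1 gene, TRIM16L. In simulated counts, 200 genes were given a transcript changed by 1 on the log2 scale, at a dispersion of 0.01. The usage test recovered 64.5% of them, and 4.44% of its calls were wrong, so changes in usage could be missed.

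Transcripts of TXNRD1 are described because it had the highest TPM among the genes that rose and had a level per length, a choice made after the values were seen. ENST00000526691 held 17.5% ± 0.446 of the TXNRD1 transcript counts in parental cells and 24.4% ± 0.541 in PS cells, higher in every PS library, and its own level rose by 1.07 on the log2 scale (edgeR adjusted p = 4.04e-05). ENST00000503506 held the largest share, 45.4% ± 2.61 in parental and 40.4% ± 0.374 in PS cells, and rose by 0.42 (edgeR adjusted p = 1.59e-03). Both encode protein, and both were higher in PS cells.

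The other genes of the pathway, taken from lists with no overlap with the 31, are given for comparison, to be read against the 28.7% of all genes that rose and the 28.1% that fell. Of 26 further NRF2 targets tested, 14 fell (53.8%), 7 rose (26.9%) and 5 did not pass, with a median log2 fold change of −0.21. AKR1B10, an aldo-keto reductase (−2.44), and ALDH3A1, an aldehyde dehydrogenase (−2.51), had the smallest p-values among those that fell, while GSTM4, a glutathione transferase (1.80), and SLC7A11, the cystine transporter (1.12), rose. The difference in median between these targets and the 31 genes was not tested. Of 14 other genes of NADPH supply, 6 fell (42.9%) and 5 rose (35.7%), with a median of 0.02. ALDH1L1 (−1.47), the cytosolic 10-formyltetrahydrofolate dehydrogenase, and RPIA (−0.62), ribose 5-phosphate isomerase, fell. ALDH1L2 (1.54) and MTHFD2 (0.72), which act in mitochondrial folate metabolism, rose.

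Other regulators of NRF2 and its partners were also measured. Of 21 tested, 10 rose (47.6%), 5 fell (23.8%) and 6 did not pass, with a median of 0.16. BACH2 (2.25) and NFE2L1 (0.83) rose, and NFE2 (−2.08) and BACH1 (−0.69) fell. BACH1 and BACH2 are repressors that compete with NRF2 for MAF partners at the ARE, and NFE2L1 and NFE2 are activators of the same family. BACH2 was at 3.62 ± 0.283 CPM in parental and 17.3 ± 0.877 CPM in PS cells, and BACH1 at 50.1 ± 2.31 and 31.2 ± 0.616 CPM. NFE2 was low in both, at 4.01 and 0.945 CPM. The small MAF genes MAFK and MAFF moved apart, MAFK higher (log2 fold change 0.74, 40.3 and 67.4 CPM) and MAFF lower (−1.44, 36.7 and 13.5 CPM).

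Among 22 other thioredoxin, peroxiredoxin, glutaredoxin, sestrin and methionine sulfoxide reductase genes, 9 rose (40.9%) and 8 fell (36.4%), with a median of 0.10. MSRB3, a methionine sulfoxide reductase (2.86), and SESN2, a stress-induced sestrin (1.65), rose, and PRDX5, a peroxiredoxin (−0.95), and TXNIP, the thioredoxin inhibitor (−0.46), fell. MSRB3 was low, at 1.70 CPM in parental and 12.3 CPM in PS cells. Of 13 other antioxidant genes 5 rose (38.5%), led by GPX3 (1.12) and GPX8 (0.47), and 1 fell (7.69%), catalase (CAT, −0.82), with a median of 0.21. Of 10 other ABC exporters 6 had enough counts to test. ABCG2 (0.89) and ABCC9 (1.87) rose and ABCC5 (−0.41) fell, while ABCB1 had 0 to 3 counts per library. ABCC9 was low, at 1.67 CPM in parental and 6.07 CPM in PS cells.

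**Figure D4:**
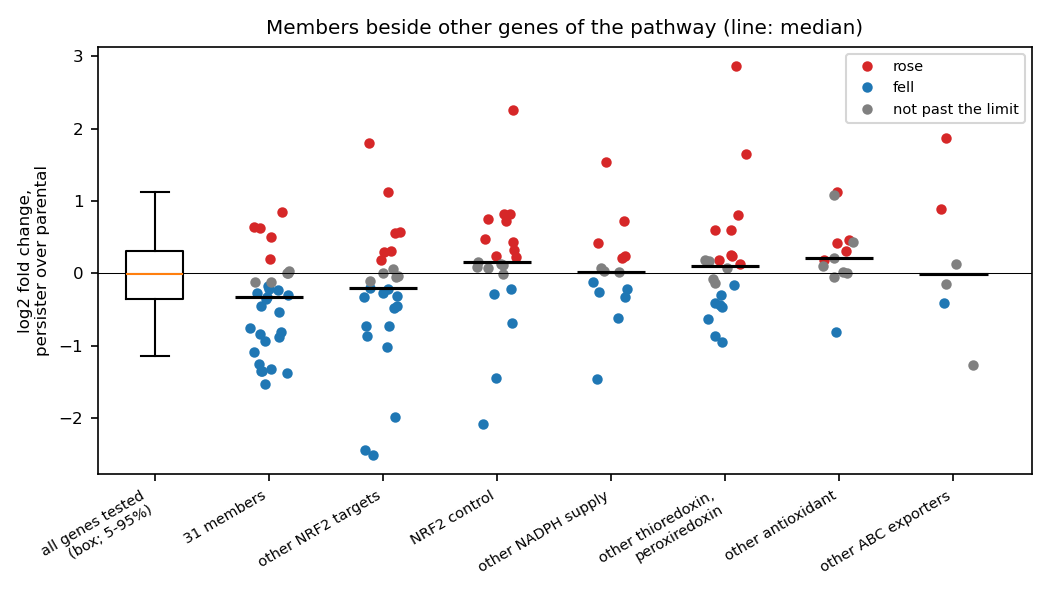
Log2 fold change in PS over parental cells (y axis) of the 31 genes and of other genes of the pathway by list, with red points for genes that rose, blue for genes that fell, grey for genes not past the limit, and a line at each median. The box at the left shows all 14626 genes tested with whiskers at the 5th and 95th percentiles. The medians run from −0.33 for the 31 genes to 0.21 for other antioxidant genes.

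Genes of proliferation and of the output of ERK, the kinase downstream of EGFR, were measured beside these results. Of 8 proliferation genes 5 rose (62.5%) and 0 fell, against 28.7% and 28.1% of all genes tested. The other 3 did not pass at an adjusted p under 0.01 in edgeR. The median was 0.27, with PLK1 at 0.67 and CCNA2 at 0.44. These transcript levels do not measure the rate of growth, and the paper describes PS cells of this model as cycling slowly. Of 9 ERK output genes 8 fell (88.9%), among them PHLDA1 (−1.88) and DUSP6 (−3.68), and 1, FOSL1 (0.27), rose (11.1%). The part of either list in the levels of the 31 genes was not tested.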

How the data were processed

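RNA-seq of 3 parental and 3 PS libraries was used, with conditions from the labels and the dose and culture details from the study's methods. The authors made poly-A libraries, trimmed and filtered the reads and pseudoaligned them with kallisto 0.46.1 to Ensembl transcripts of GRCh38, and deposited its estimated counts, unnormalised and rounded to whole numbers, in a gene table and a transcript table. The submitters' processing notes also name sleuth 0.30.0. The fit has no batch term, because libraries of a second laboratory were not analysed here.

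In R 4.3.3, edgeR 4.0.16 was used with filterByExpr, TMM, glmQLFit and glmQLFTest over all genes or transcripts, Benjamini-Hochberg adjustment and a limit of 0.01. Usage was tested with diffSpliceDGE and its Simes p. CPM are TMM-normalised. TPM were computed from transcript lengths in GENCODE 44, to which 95.8% of transcript counts were matched, and coordinates are from the same annotation. Shared 31-letter words were counted over all matched transcripts. Alternatives used DESeq2 1.42.0, limma 3.58.1, other scalings and filters, left-out libraries and a replicate block. The gene, transcript and usage tests were tested on simulated data.

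All 31 genes are named. Those past the limit by at least 1 on the log2 scale are given by library with full statistics, and of each other list the counts and, in each direction, the 2 genes of smallest p-value. The genes that rose are also given by library, which was decided after their values were seen. The levels of BACH1, BACH2, NFE2, MAFF, MAFK, MSRB3 and ABCC9 and the printed promoter sites were likewise chosen with values known. So were the marker genes given beside the sums and the ABCC3 transcripts. The 31 genes and the lists were chosen with earlier results of these data known. The p-values measure the spread between these libraries, and the spread of PS libraries is that of pools. PGLS and LUCAT1 were not analysed here.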

Additional observations from a re-analysis of the deposited data

How the results depend on the processing

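Counts of genes past the limit stayed within 1.5 times under every scaling, tool and filter tried. With a log2 fold change of at least 1 required besides the limit, 1691 genes were called in all, 0 of the 31 higher and 7 lower. Leaving out 1 library gave 7054 to 8407 genes called, 4 to 5 of the 31 higher and 20 to 23 lower, 21 to 29 transcripts of these genes, and changed usage in 0 to 1 gene. At an adjusted p under 0.05, usage passed in 2 genes. Signs of 3 genes that passed no limit turned. NFE2L2 was at −0.0410 under upper-quartile scaling, −0.0512 under library size only and −0.00165 with a CPM filter, and ran from −0.0142 to 0.0223 with 1 library left out. ME1 was at −0.0189 and −0.0285 under those scalings and ran from −0.00083 to 0.0628 with 1 library left out. TRIM16L was at −0.0392 and −0.0496, at −0.0625 with counts summed from transcripts, and ran from −0.0127 to 0.0219 with 1 library left out. The median of all genes moved to −0.06 at most, under library size only. The causes were not tested. The other 28 genes kept their direction in all 16 alternatives each, although the alternative with a limit of 0.05 could not change a direction.

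Replicate numbers are shared by both conditions. The deviations of same-numbered libraries from their group means correlated at 0.187, 0.0357 and 0.0385, with 1 of 3 over 0.1, and the labels do not say that a number marks a shared culture, so the libraries were not treated as pairs. A replicate block gave 8671 genes, 5 of the 31 higher and 21 lower, and 13 transcripts in place of 38.

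With 3 libraries a condition, an exact permutation test could not go below p = 0.1, so calls rest on the spread shared across genes. How reads were assigned among similar transcripts adds an error that no test here contains.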
